A study of Mus musculus with 6 samples.

Results

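Expression of 8 genes of the phosphoinositide 3-kinase (PI3K) and AKT pathway was followed in mammary epithelial organoids induced to lose Erbb3. The genes were taken by name: the catalytic subunits Pik3ca and Pik3cb, the regulatory subunits Pik3r1 and Pik3r3, the kinases Akt1 and Akt2, the lipid phosphatase Inpp4b and the PI3K inhibitor Pik3ip1. Each was represented by its probe set, a group of array probes summarised to 1 value, annotated to that symbol alone and with the highest mean over the arrays. All 8 were measured, out of 19937 genes with such a probe set. RNA of 6 organoid cultures was hybridised to 1-colour mouse whole-transcript arrays, 1 array a culture. The DOX group held 3 cultures given 5 µM doxycycline during 14 days in growth factor-reduced Matrigel, and the control group held 3 cultures kept as long without the drug. Both groups carried the same genotype, named ErbB3 DOX-KO, on the FVB strain, and came from age-matched female mice whose age is not given in the labels. The labels name neither the promoter that drives the inducible system nor the cells it acts in. Doxycycline was given only to the DOX group and no doxycycline-treated organoids without the knockout were analysed here, so effects of the drug and of the induced knockout cannot be told apart. The labels do not say whether the 3 biological replicates came from separate mice, and p-values measure only the spread between these cultures. Precision is limited by the number of arrays.

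Class I PI3K is a lipid kinase made of a catalytic and a regulatory subunit, and the SH2 domains of the regulatory subunit dock on phosphorylated tyrosines of receptors and adaptors. ErbB3 is known as a strong docking receptor for it, because its tail carries repeated binding sites for the regulatory subunit while its own kinase domain is weak. The lipid product, PIP3, brings AKT kinases to the membrane, where they phosphorylate FOXO factors, the TSC complex and other targets. In the mammary gland AKT signalling is known for the survival of luminal cells and for milk synthesis.

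Values are RMA summaries on the log2 scale, on which a difference of 1 is a 2-fold difference, and differences are DOX minus control. One array, DOX replicate 2, was unlike the remaining 5. Its correlation with the others across genes was 0.816 to 0.865, against at least 0.963 among the remaining 5 arrays. Its values were also compressed: when genes were split into 10 bins by control level, the top bin read a median of −1.59 relative to control there, and the lowest bin 0.84. The 8 genes are therefore given with all 6 arrays and without DOX replicate 2, and a fit without it rests on 2 DOX arrays. The targeted gene, Erbb3, read 10.36, 9.31 and 9.82 in DOX replicates 1 to 3, against 9.78, 9.71 and 9.69 in control replicates 1 to 3 (difference 0.10, limma adjusted p = 0.845, and 0.37 without DOX replicate 2, limma adjusted p = 0.105). It was thus not lower with doxycycline. The labels do not name the deleted part of the gene, so a probe set that reads the whole transcript is no clean check of them, and every direction here is that of the libraries labelled DOX.

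The luminal keratins Krt8 and Krt18 read 11.51 and 12.01 on average in DOX arrays and 12.52 and 12.64 in control arrays, while Krt19, another luminal keratin, was low at 4.79 and 4.80. The basal keratin Krt5 was low in both groups, at 5.31 in DOX arrays and 5.24 in control arrays. Krt14, another basal keratin, read 5.64 in DOX arrays and 6.61 in control arrays, where the median gene read 5.93. Mean levels of 6 fibroblast, 5 adipocyte, 5 endothelial and 4 leukocyte markers lay between 4.19 and 5.79 over the DOX arrays and between 4.08 and 5.36 over the control arrays, below the median gene of the control arrays at 5.93. The highest marker of each list in control arrays was Col1a1 (6.56 in DOX and 6.46 in control), Plin1 (5.61 and 5.39), Pecam1 (4.85 and 4.56) and Cd68 (7.78 and 7.29). No marker passed the test with all arrays. In the fit without DOX replicate 2 none of the fibroblast, adipocyte or endothelial markers passed, the leukocyte markers Cd68 and Ptprc rose by 1.01 and 0.38 (limma adjusted p = 1.03e-04 and 0.0358), and Krt8, Krt18 and Krt14 fell by 0.74, 0.64 and 1.06. Their part in the results below was not tested.

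With all 6 arrays 0 of the 8 genes passed an adjusted p of 0.05 in limma, where 2.38% of all genes did. Pik3r3 and Akt1 had an unadjusted p under 0.05. Without DOX replicate 2, 5 of the 8 passed: Pik3ca and Pik3cb rose, and Pik3r3, Akt1 and Inpp4b fell, while Pik3r1, Akt2 and Pik3ip1 did not pass. That fit called 26.6% of all genes, 12.3% as higher and 14.3% as lower. Among genes whose mean lay above that of the median gene, as it did for 7 of the 8, the same fit called 41.9%. In these bulk cultures, fewer cells of a type and less RNA per cell cannot be told apart. Over all arrays the 8 had a median difference of −0.44, beside 0.02 for all genes and −0.33 for the genes with means above the median gene, and over the 5 arrays left without DOX replicate 2 one of −0.10, beside 0.01.

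**Figure D1:**
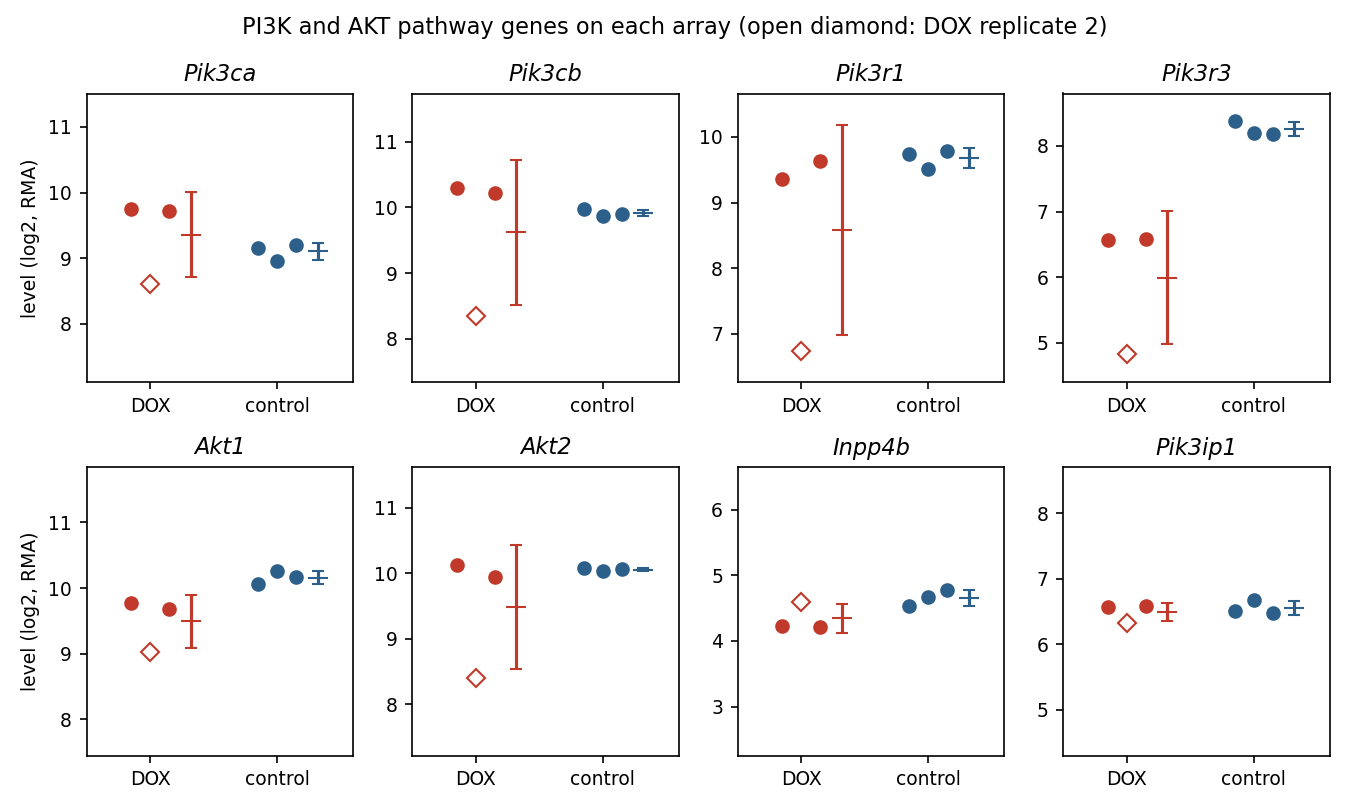
Level of each gene on each array (log2, RMA), DOX arrays on the left and control arrays on the right of each panel. Each panel spans the same number of log2 units. Open diamonds are DOX replicate 2, and bars are the mean and SD over 3 arrays. The DOX and control arrays do not overlap for Pik3r3 and Akt1, and DOX replicate 2 is the lowest DOX array for all genes but Inpp4b.

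Pik3ca encodes p110α, the catalytic subunit that receptor tyrosine kinases mainly use. It read 9.76, 8.61 and 9.71 in DOX replicates 1 to 3, against 9.15, 8.95 and 9.21 in control replicates 1 to 3. DOX replicates 1 and 3 lay above every control array, and DOX replicate 2 below every one. Over all arrays it differed by 0.26, less than the spread between arrays (95% confidence interval −0.55 to 1.07, limma adjusted p = 0.68). Pik3ca rose by 0.63 without DOX replicate 2 (95% confidence interval 0.37 to 0.90, limma adjusted p = 0.00258). On DOX replicate 2 it read −0.49 from the control mean, where the median of all genes in its bin of control level was −1.59. It thus lay above the median of its bin on all 3 DOX arrays, by 0.72, 1.10 and 0.73. Its control level was near the lower edge of that bin. The next bin down read a median of −1.36 on DOX replicate 2, so the 1.10 depends on the bin used. With cyclic loess normalization, an alternative chosen after seeing the data that evens out differences that depend on level, Pik3ca rose by 0.67 with all 6 arrays (limma adjusted p = 0.0236).

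Pik3cb encodes p110β, which also responds to G protein-coupled receptors. Its values were 10.30, 8.35 and 10.22 in DOX replicates 1 to 3, against 9.97, 9.87 and 9.90 in control replicates 1 to 3. As for Pik3ca, DOX replicates 1 and 3 lay above the control arrays and DOX replicate 2 lay below them. The direction depended on that array, with a difference of −0.29 with all arrays (95% confidence interval −1.54 to 0.96, limma adjusted p = 0.759) and a rise of 0.34 without it (95% confidence interval 0.10 to 0.58, limma adjusted p = 0.0403). Of 9 settings that left out DOX replicate 2, 2 called Pik3cb and 9 called Pik3ca. The 9 settings draw on the same arrays and are no separate checks. Among them a replicate block gave the same difference as leaving out control replicate 2 (0.56 for Pik3ca in both). On DOX replicate 2 Pik3cb read −1.57 from the control mean, next to −1.59 for the genes of its level.

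Among the regulatory subunits Pik3r3 gave the largest difference of the 8 genes. It encodes p55γ, a short regulatory subunit that lacks the SH3 domain of p85. It read 6.57, 4.83 and 6.58 in DOX replicates 1 to 3, against 8.38, 8.20 and 8.19 in control replicates 1 to 3. Every DOX array lay below every control array. The difference was −2.26 with all arrays (SE 0.48, 95% confidence interval −3.42 to −1.10, limma adjusted p = 0.0829). Pik3r3 fell by 1.68 without DOX replicate 2 (SE 0.11, 95% confidence interval −1.93 to −1.42, limma adjusted p = 1.74e-06). The share of genes reading at or below it, used here only to follow it from array to array, was 59.1%, 16.4% and 60.7% in DOX replicates 1 to 3, against 82.9%, 80.6% and 79.9% in control replicates 1 to 3. Relative to the median of genes in its bin of control level it lay at −1.70, −2.07 and −1.60 on the 3 DOX arrays. Its difference ran from −2.56 to −1.62 over the settings tried. It passed with cyclic loess normalization of all 6 arrays (difference −2.02, limma adjusted p = 0.00984), which called 1754 of all genes. It also passed with array weights (−1.70, limma adjusted p = 3.43e-10), which called 7394. The weighted difference lay close to that without DOX replicate 2, so it is no separate check.

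Pik3r1, which encodes p85α and its shorter forms p55α and p50α, was read by 1 probe set that does not separate those forms. Its values were 9.36, 6.74 and 9.64 in DOX replicates 1 to 3, against 9.74, 9.51 and 9.79 in control replicates 1 to 3. DOX replicate 3 lay within the control range, DOX replicate 1 just under it, and DOX replicate 2 far under it. The difference of −1.10 with all arrays (95% confidence interval −2.87 to 0.68, limma adjusted p = 0.484) shrank to −0.18 without DOX replicate 2 (95% confidence interval −0.47 to 0.12, limma adjusted p = 0.379). On DOX replicate 2 Pik3r1 read −2.93 from the control mean, against −1.59 for the genes of its level.

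Akt1 encodes the AKT kinase best known for cell growth and survival. It read 9.77, 9.03 and 9.68 in DOX replicates 1 to 3, against 10.05, 10.26 and 10.16 in control replicates 1 to 3. All DOX arrays lay below all control arrays. The difference was −0.67 with all arrays (95% confidence interval −1.25 to −0.08, limma adjusted p = 0.299), and Akt1 fell by 0.43 without DOX replicate 2 (95% confidence interval −0.69 to −0.18, limma adjusted p = 0.0174). It was called in 5 of the 9 settings without that array. The call was lost with a replicate block or when DOX replicate 3, control replicate 2 or control replicate 3 was also left out (limma adjusted p between 0.054 and 0.0822), and cyclic loess over all arrays gave −0.26 (limma adjusted p = 0.413). DOX replicates 1 and 3 lay at −0.33 and −0.36 relative to the genes of its level, and DOX replicate 2, where those genes read −1.59, lay above them by 0.46. Of the 8 genes, 2 had DOX and control arrays that did not overlap, Pik3r3 and Akt1, where 32.0% of all genes did not.

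Akt2, the AKT kinase best known for insulin-driven glucose uptake, read 10.12, 8.40 and 9.94 in DOX replicates 1 to 3, against 10.07, 10.03 and 10.06 in control replicates 1 to 3. DOX replicate 1 lay above the control arrays, DOX replicate 3 just below them and DOX replicate 2 far below. The difference was −0.57 with all arrays (95% confidence interval −1.65 to 0.52, limma adjusted p = 0.53) and −0.02 without DOX replicate 2 (95% confidence interval −0.27 to 0.23, limma adjusted p = 0.914). On DOX replicate 2 Akt2 read −1.65 from the control mean, next to −1.59 for the genes of its level. A second probe set of Akt2, with a lower mean, read 9.65, 7.25 and 9.40 in DOX replicates 1 to 3, against 9.63, 9.64 and 9.43 in control replicates 1 to 3. It shared the low value on DOX replicate 2.

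Inpp4b encodes a phosphatase that removes a phosphate from a lipid made downstream of PIP3. It was the dimmest of the 8 probe sets, at 4.23, 4.60 and 4.21 in DOX replicates 1 to 3, against 4.54, 4.66 and 4.77 in control replicates 1 to 3. DOX replicates 1 and 3 lay below the control arrays, and DOX replicate 2 lay within them. The difference was −0.31 with all arrays (95% confidence interval −0.77 to 0.15, limma adjusted p = 0.467), and Inpp4b fell by 0.44 without DOX replicate 2 (95% confidence interval −0.69 to −0.18, limma adjusted p = 0.0176). It was called in 6 of those 9 settings, and not with a replicate block or without control replicate 2 or 3 (limma adjusted p between 0.0513 and 0.0758). Genes in its bin of control level, bin 3 of 10, read a median of 0.79 above control on DOX replicate 2. Relative to the median of that bin Inpp4b lay at −0.43, −0.85 and −0.58 in DOX replicates 1 to 3. RMA values carry no detection calls, and Inpp4b was the 1 gene of the 8 below the median gene.

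Pik3ip1 encodes a transmembrane protein that binds the catalytic subunit and holds PI3K back. It read 6.57, 6.33 and 6.59 in DOX replicates 1 to 3, against 6.51, 6.68 and 6.48 in control replicates 1 to 3. DOX replicates 1 and 3 lay within the control range, and DOX replicate 2 lay 0.03 from the genes of its level. The difference was −0.06 with all arrays (95% confidence interval −0.49 to 0.36, limma adjusted p = 0.847) and 0.02 without DOX replicate 2 (95% confidence interval −0.23 to 0.27, limma adjusted p = 0.925).

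**Figure D2:**
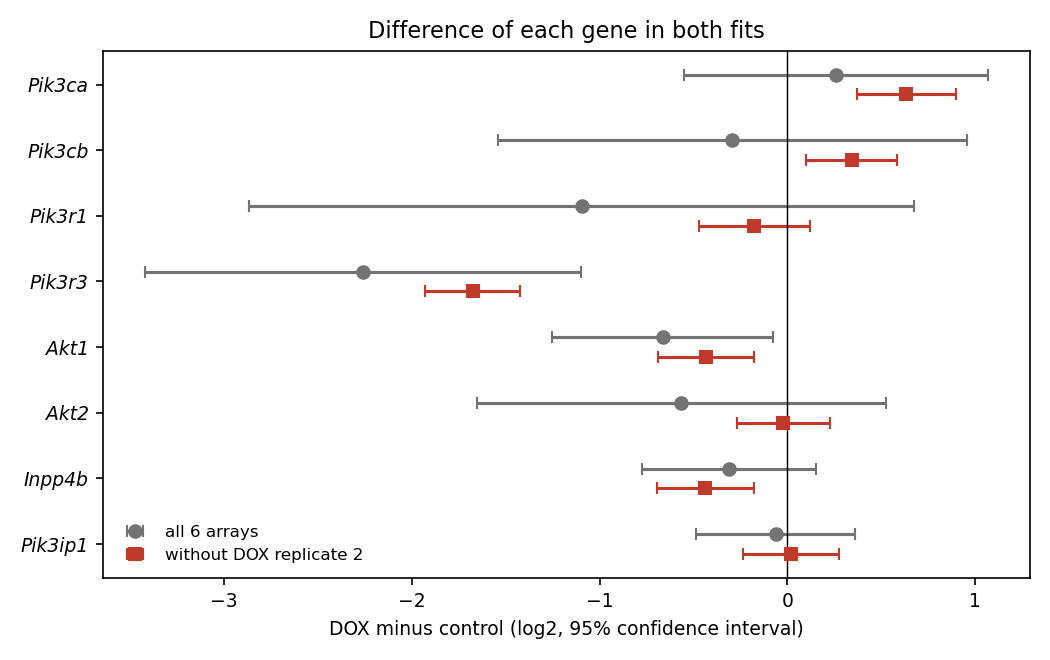
Difference of each gene, DOX minus control on the log2 scale, with 95% confidence intervals from limma. Grey circles use all 6 arrays and red squares leave out DOX replicate 2. Without DOX replicate 2 the intervals of Pik3ca and Pik3cb lie above 0, those of Pik3r3, Akt1 and Inpp4b lie below 0, and those of Pik3r1, Akt2 and Pik3ip1 include 0.

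**Figure D3:**
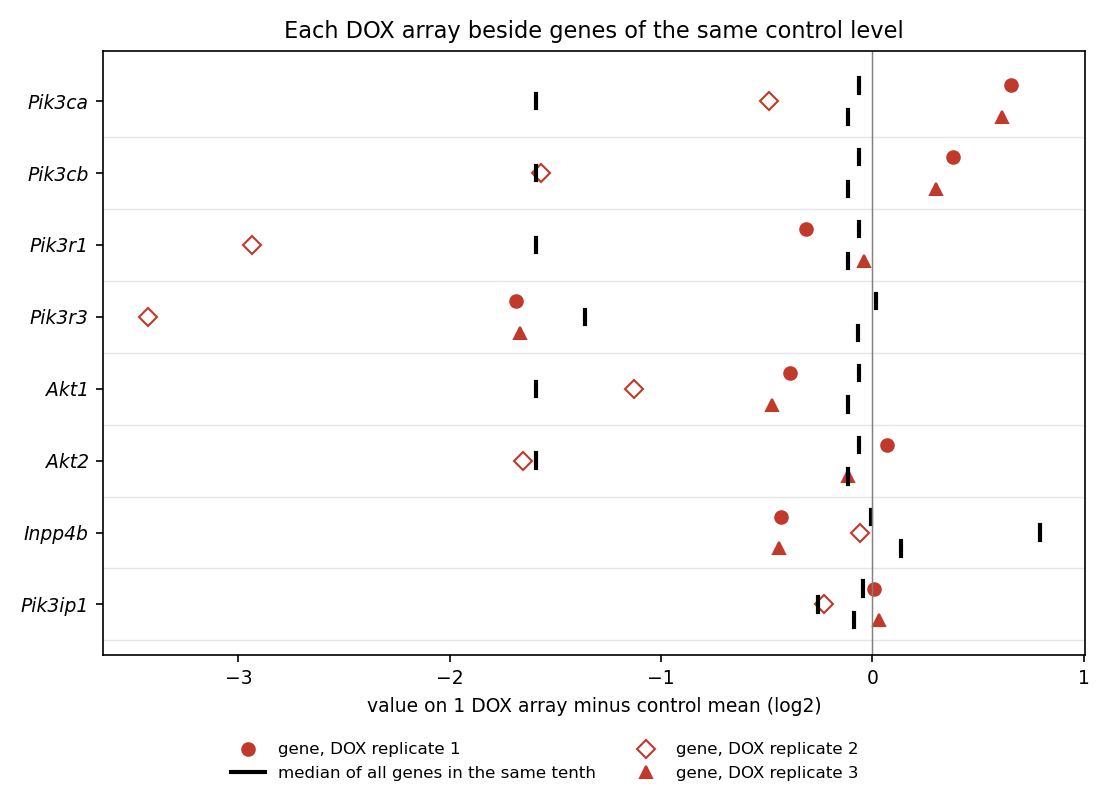
Value of each gene on each DOX array minus its control mean (log2). Black ticks are the median of all genes in the same bin of control level on that array. Pik3r3 and Inpp4b lie left of their ticks on all 3 DOX arrays, and Pik3ca, Pik3cb and Pik3ip1 lie right of theirs. Pik3cb, Akt2 and Pik3ip1 lie close to their ticks on DOX replicate 2.

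Paralogues were set against each other within each array, which asks whether both moved by the same amount. These within-array values are not ratios of transcript amounts, since each probe set has its own brightness. Pik3r3 minus Pik3r1 was −2.80, −1.92 and −3.06 in DOX replicates 1 to 3, against −1.36, −1.31 and −1.60 in control replicates 1 to 3. All DOX arrays lay below all control arrays, a change of −1.17 with all arrays and of −1.50 without DOX replicate 2. Pik3ca minus Pik3cb was −0.54, 0.26 and −0.50 in DOX replicates 1 to 3, against −0.82, −0.92 and −0.69 in control replicates 1 to 3. Here the DOX arrays lay above the control arrays, a change of 0.55 with all arrays and of 0.29 without DOX replicate 2. Two-sided exact permutation tests gave p = 0.1 for both pairs, the smallest that 3 against 3 arrays allow (adjusted over the 3 pairs p = 0.15), so this design cannot reach 0.05. Without DOX replicate 2 the exact permutation p was 0.1 for Pik3r3 minus Pik3r1 and 0.2 for Pik3ca minus Pik3cb. Akt1 minus Akt2 was −0.36, 0.63 and −0.26 in DOX replicates 1 to 3, against −0.02, 0.23 and 0.10 in control replicates 1 to 3. That change of −0.10 (exact permutation p = 0.9) was within the spread between arrays with all arrays. It was −0.41 without DOX replicate 2 (exact permutation p = 0.1, the smallest possible). With all arrays the second probe set of Akt2 differed by −0.80 and Akt1 by −0.67, so the sign of that change depends on the Akt2 probe set used.

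Promoters of 3 of these genes are shown because Pik3ca and Pik3r3 were called in each of the 9 settings without DOX replicate 2, in opposite directions, and because Akt1 holds the only motif match. The sequences are RefSeq's, on the GRCm38.p6 build, from 250 bases before to 50 bases after an annotated start, 5′ to 3′ on the gene's strand. Pik3ca has 1 listed start, Pik3r3 has 3 and Akt1 has 2, of which the first listed is shown. Capitals mark a match to the forkhead motif that FOXO factors are known to bind.
Pik3ca, chr3:32396815-32397114, plus strand: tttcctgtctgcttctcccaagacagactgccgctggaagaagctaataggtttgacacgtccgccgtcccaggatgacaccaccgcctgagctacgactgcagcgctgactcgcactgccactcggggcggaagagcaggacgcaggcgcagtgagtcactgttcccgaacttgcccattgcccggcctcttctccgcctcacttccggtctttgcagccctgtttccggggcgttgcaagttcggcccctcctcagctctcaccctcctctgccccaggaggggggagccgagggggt
Pik3r3, chr4:116221166-116221465, plus strand: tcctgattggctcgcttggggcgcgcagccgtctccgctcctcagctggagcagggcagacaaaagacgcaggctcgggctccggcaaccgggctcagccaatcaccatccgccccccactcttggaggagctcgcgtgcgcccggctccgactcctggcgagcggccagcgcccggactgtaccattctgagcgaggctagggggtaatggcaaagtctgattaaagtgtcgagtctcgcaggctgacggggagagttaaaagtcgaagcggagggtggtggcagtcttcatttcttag
Akt1, chr12:112674835-112675134, minus strand: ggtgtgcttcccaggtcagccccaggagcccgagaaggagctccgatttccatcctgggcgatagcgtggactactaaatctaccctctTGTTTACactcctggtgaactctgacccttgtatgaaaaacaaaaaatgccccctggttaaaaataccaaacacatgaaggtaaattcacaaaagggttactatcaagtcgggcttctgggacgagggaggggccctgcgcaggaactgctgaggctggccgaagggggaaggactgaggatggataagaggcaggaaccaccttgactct

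GTAAACA, the forkhead motif, and TGATGCAA, an element of ATF4 with its partners, were searched on both strands in the 15 promoter windows listed for the 8 genes. GTAAACA was found in 1 of the 15, the Akt1 window above, on the strand opposite to the gene and at position −161 relative to the start. It occurs in 3.65% of all 32851 such windows. TGATGCAA was found in 0 of the 15 and in 0.895% of all windows. G and C made up 63.3% of the Pik3ca window, 63.0% of the Pik3r3 window and 52.3% of the Akt1 window.

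Around these genes, 53 of 56 listed genes of the PI3K, AKT and mTOR network were measured, the 8 included, and the other 3 were not analysed here. With all arrays 1 rose and 1 fell, where 2.38% of all genes were called, and the median difference was −0.19, beside 0.02 for all genes and −0.33 for those above the median gene. Gab2, a docking adaptor that recruits regulatory subunits to activated receptors, rose by 1.03 (SE 0.18, limma adjusted p = 0.0455). It read 7.89, 7.58 and 7.57 in DOX replicates 1 to 3, against 6.53, 6.71 and 6.72 in control replicates 1 to 3, with no overlap. Deptor, an inhibitory partner of mTOR, fell by 1.30 (SE 0.19, limma adjusted p = 0.0238). It read 7.01, 6.65 and 6.72 in DOX replicates 1 to 3, against 8.03, 7.97 and 8.29 in control replicates 1 to 3, again with no overlap. Both kept their size when any 1 array was left out (0.92 to 1.08 for Gab2 and −1.41 to −1.21 for Deptor). Gab2 kept its call without DOX replicate 2 but not without any other single array, and Deptor without DOX replicate 1 or 2 only (limma adjusted p up to 0.307 and 0.192). Both calls were also lost with a replicate block (limma adjusted p = 0.218 and 0.128), and that of Gab2 with arrays centred on their medians (0.82, limma adjusted p = 0.193). Without DOX replicate 2, 14 of the 53 rose and 12 fell (median difference 0.03). Of the 53, 46 lay above the median gene in mean level, and 24 of these 46 were called, next to the 41.9% given above for all such genes.

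Of the listed genes called in the following comparisons, Deptor alone also passed with all arrays. Upstream of the kinase, adaptors moved in both directions without DOX replicate 2. Irs2, an insulin receptor substrate, rose by 1.06 (limma adjusted p = 9.04e-04), while its paralogue Irs1 fell by 0.67 (limma adjusted p = 0.00135). Irs1 read 8.76, 6.29 and 8.73 in DOX replicates 1 to 3, against 9.47, 9.31 and 9.48 in control replicates 1 to 3, and Irs2 read 8.46, 7.17 and 7.79 in DOX replicates 1 to 3, against 7.06, 7.06 and 7.05 in control replicates 1 to 3. The DOX and control arrays of both genes were apart, in opposite directions. Pik3ap1, an adaptor known from B cells, fell by 0.49 (limma adjusted p = 0.00784). With all arrays Irs2, Irs1 and Pik3ap1 differed by 0.75, −1.49 and −0.28 (limma adjusted p between 0.38 and 0.545).

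Of the other kinase subunits, Pik3cg, which encodes the p110γ subunit known mainly from leukocytes, fell by 1.18 without DOX replicate 2 (limma adjusted p = 4.46e-05) and differed by −0.92 with all arrays (limma adjusted p = 0.183). It read 5.08, 5.84 and 5.06 in DOX replicates 1 to 3, against 6.15, 6.42 and 6.16 in control replicates 1 to 3, so that all DOX arrays were lower. In the same fit, which called 26.6% of all genes, the leukocyte markers Cd68 and Ptprc were higher, as given above. The other leukocyte markers measured, Cd3e and Adgre1, differed by 0.08 and −0.22 and did not pass. The bearing of these markers on Pik3cg was not tested. Without DOX replicate 2 the regulatory subunits Pik3r2, Pik3r5 and Pik3r6 differed by 0.04, 0.13 and 0.17 and did not pass. Pik3r3 was thus the 1 of 5 class I regulatory subunits called, where 26.6% of all genes were. Pik3r5 and Pik3r6 read 5.27 and 5.18 on average in control arrays, below the median gene at 5.93. Pik3c2a, a class II PI3K, and Pik3r4, a subunit of the class III complex, rose by 0.79 and 0.54 (limma adjusted p = 6.69e-04 and 0.0106), and with all arrays differed by 0.14 and 0.25 (limma adjusted p = 0.892 and 0.643).

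Among the kinases that PIP3 recruits or activates, Pdpk1, which phosphorylates AKT, rose by 0.44 without DOX replicate 2 (limma adjusted p = 0.015), and Sgk1, an AKT-related kinase, fell by 0.64 (limma adjusted p = 0.00147). Pdpk1 read 5.75 on DOX replicate 2, against 8.27 to 8.41 in control arrays, and its difference with all arrays was −0.58, while that of Sgk1 was −1.37 (limma adjusted p = 0.702 and 0.37). Of 7 lipid phosphatases and PI3K inhibitors 1 was called, Inpp4b, in a fit that called 26.6% of all genes. Trib3, a pseudokinase that binds AKT and is a known target of the ATF4 stress response, rose by 1.79 (limma adjusted p = 1.61e-06). It read 11.19, 9.88 and 10.91 in DOX replicates 1 to 3, against 9.28, 9.26 and 9.23 in control replicates 1 to 3, with all DOX arrays higher (difference 1.40 with all arrays, limma adjusted p = 0.129).

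In the mTOR complexes 4 of 10 genes rose and 3 fell without DOX replicate 2, a fit that called 26.6% of all genes and 41.9% of those above the median gene. Those that rose were Rheb, the GTPase that switches on mTORC1, by 1.07, the kinase Mtor by 0.66, and the mTORC2 subunits Rictor and Mapkap1 by 0.60 and 0.47 (limma adjusted p between 1.18e-04 and 0.0103). Deptor fell by 1.23, the shared subunit Mlst8 by 0.59 and the AKT substrate Akt1s1 by 0.58 (limma adjusted p between 7.98e-05 and 0.00434). All 3 were lower on every DOX array than on any control array. They were the 3 of the 10 genes whose groups did not overlap, where 32.0% of all genes did not. With all arrays Rheb, Mtor, Rictor and Mapkap1 differed by 0.35, 0.21, −0.15 and 0.06 (limma adjusted p between 0.747 and 0.934), and Mlst8 and Akt1s1 by −0.95 and −0.88 (limma adjusted p = 0.268 and 0.241). Of 9 downstream kinases and substrates, Gsk3b and Eif4ebp1, a translation repressor, rose by 0.60 and 0.54 (limma adjusted p = 0.00841 and 0.0303). Bad, a pro-apoptotic AKT substrate, and Foxo1 fell by 0.63 and 0.43 (limma adjusted p = 0.00202 and 0.0277). With all arrays the differences were 0.01 for Gsk3b, 0.20 for Eif4ebp1, −0.57 for Bad and −0.87 for Foxo1 (limma adjusted p between 0.206 and 0.994).

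**Figure D4:**
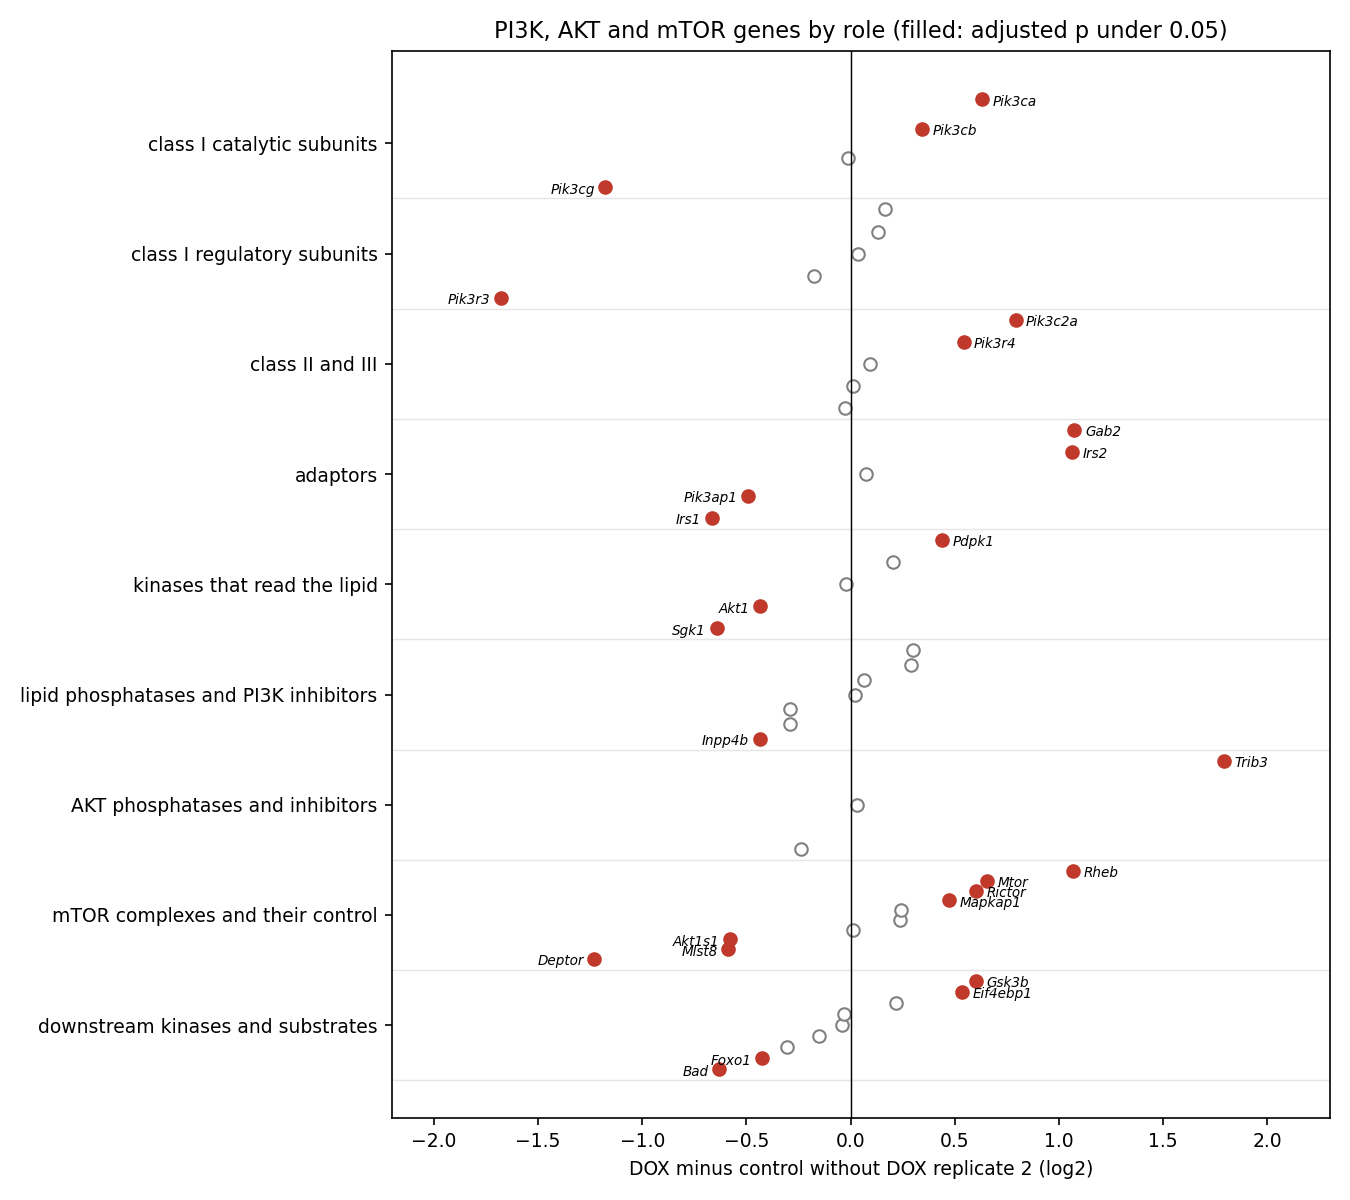
Difference of 53 PI3K, AKT and mTOR genes, DOX minus control on the log2 scale without DOX replicate 2, by role. Filled points passed an adjusted p of 0.05 over all genes in limma. Trib3 lies farthest to the right and Pik3r3 farthest to the left. Filled points lie on both sides of 0 for the class I catalytic subunits, adaptors, kinases that read the lipid, mTOR complexes and downstream genes.

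The genes whose pattern over the 6 arrays lay nearest to Pik3r3 were Srebf1, a regulator of lipid synthesis, Nrarp and Mis18a, with root mean square distances of 0.11, 0.14 and 0.14 on the log2 scale after each gene was centred on its mean. Srebf1 read 8.86, 7.42 and 8.96 in DOX replicates 1 to 3, against 10.68, 10.67 and 10.68 in control replicates 1 to 3. Nearest to Pik3ca, the member with the highest difference over all arrays, were Cltc, which encodes the clathrin heavy chain, Zfp330 and Kif3b, at distances of 0.03, 0.04 and 0.04. Cltc read 11.62, 10.51 and 11.52 in DOX replicates 1 to 3, against 11.02, 10.78 and 11.05 in control replicates 1 to 3, and shared the low value of Pik3ca on DOX replicate 2.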

How the data were processed

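RNA of 6 organoid cultures, 3 DOX and 3 control by the sample titles, was measured on 1-colour arrays. The deposited values are log2 expression per probe set, and per the submitters' processing notes the authors used RMA and the affy package. Versions are not given in the sources used here. RMA usually equalises the distributions of arrays, yet those of DOX replicate 2 differed as deposited. Of 34760 probe sets, 21640 had 1 gene symbol in GEO's platform annotation, 1321 several and 11799 none here. Only the first kind was used, and 0 symbols changed through gene identifiers. Where a gene had several, the one brightest on average over the 6 arrays stood for it (19937 genes). The comparison of DOX with control used limma 3.58.1 (lmFit and eBayes without covariates, two-sided, in R 4.3.3), with Benjamini-Hochberg adjustment over all genes. The procedure was tested on simulated data with independent noise and no compressed array, so that test does not cover DOX replicate 2. The 8 genes and all lists were chosen with earlier results of these data known. In the wider network, called genes were named, at most 3 a direction and role unless 5 or fewer were called. Pattern neighbours exclude predicted genes. Alternatives were a replicate block, each array left out, other normalizations, filters on low levels, averaged probe sets, array weights, a variance trend and, chosen after seeing the data, cyclic loess. Paralogue pairs were compared by exact permutation. Promoter sequences are from RefSeq (GRCm38.p6).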

Additional observations from a re-analysis of the deposited data

How the results depend on the processing

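Values are log2 differences, DOX minus control, or counts of genes with a limma adjusted p under 0.05. Without DOX replicate 2 the count among the 8 genes was 5 and in the wider list 26, with 5309 of all genes called. Leaving out any other single array gave 0 of the 8 and 0 or 1 of the list. Of all 19937 genes, those fits called 273 without DOX replicate 1 and 195 without DOX replicate 3. Without control replicates 1 to 3 they called 85, 80 and 63. Array weights gave 4 of 8 and 29 of 53, with 3642 of all genes higher and 3752 lower. A second quantile normalization gave 5 of 53 (all genes 185 and 626), and cyclic loess, chosen after seeing the data, 2 of 8 and 9 of 53 (all genes 557 higher and 1197 lower). Median centring of all arrays gave 0 of 8 and 2 of 53, both lower (all genes 7 higher and 487 lower). A replicate block with all arrays gave 0 of 8 and 0 of 53 (all genes 3 and 159). With DOX replicate 2 left out it gave 2 of 8 and 22 of 53 (all genes 1841 and 2320). The labels do not say whether same-numbered arrays share a mouse, so the numbers were not taken as pairs. Deviations of same-numbered arrays from their group means correlated at 0.117, 0.194 and 0.0852. The DOX means include DOX replicate 2, so these correlations cannot show whether the arrays are paired. With DOX replicate 2 left out, quantile normalization gave 5 and 27 (all genes 2360 and 3408), and median centring 4 and 26 (1823 and 3410). Leaving out 1 further array there gave 4 and 21 (DOX replicate 1), 3 and 25 (DOX replicate 3), 4 and 24, 2 and 19, and 2 and 21 (control replicates 1 to 3), where a lone DOX array is assumed to vary like the controls, and where all genes gave 1550 to 2515 higher and 2168 to 2914 lower. Over single arrays left out, Pik3cb ran from −0.63 to 0.34, Pik3ip1 from −0.11 to 0.019 and the Akt1 minus Akt2 change from −0.41 to 0.08. Pik3cb turned positive with array weights (0.29), cyclic loess (0.11) and, with DOX replicate 2 left out, a replicate block (0.32), quantile normalization (0.32), centring (0.27) and 1 further array left out (0.30, 0.38, 0.37, 0.32 and 0.33). Pik3ip1 turned positive in the same order at 0.038, 0.050, 0.081 and 0.066, and with DOX replicate 1, DOX replicate 3 or control replicate 2 also left out at 0.029, 0.0089 and 0.081. Akt2 was 0.071 without DOX replicates 2 and 3. The cause of these shifts was not tested. Over all genes the share of calls that were higher was 5.06% with all arrays, 46.2% without DOX replicate 2, 22.8% with quantile normalization, 31.8% with cyclic loess, and 49.3% with array weights. Median centring moved the median of all genes from 0.02 to −0.18.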
